A study of Mus musculus with 8 samples.

Results

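The genes described here are those of respiratory chain complexes I to IV, measured in mouse pancreatic islets. A gene was taken when its symbol begins with Ndufa, Ndufb, Ndufc, Ndufs, Ndufv, Sdha to Sdhd, Uqcr, Cox4i, Cox5, Cox6, Cox7 or Cox8, which gave 74 of the 17097 genes of the arrays. The rule uses symbols alone, but it was chosen with earlier results of these data known. By symbol they are 35 complex I genes, 7 complex I assembly factors (Ndufaf), 4 complex II subunits and 4 complex II assembly factors (Sdhaf). The rest are 7 complex III subunits and 17 genes placed in complex IV by symbol, Cox7a2l among them. The complex I count follows the symbols and so includes Ndufa4, whose product is now placed in complex IV, its relative Ndufa4l2, and Ndufs5-ps, which is annotated as a pseudogene of Ndufs5.

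Islets of 20-week-old mice were hybridised to 8 Affymetrix expression arrays, 2 in each of 4 groups. The groups were hIAPP transgenic mice given 4-phenylbutyrate (PBA), untreated hIAPP transgenic mice, wild-type mice given PBA, and untreated wild-type mice. Every sample, wild type included, carries the strain label FVB/N-Tg(Ins2-IAPP)RFHSoel/J. The transgene expresses human islet amyloid polypeptide, a hormone that can form amyloid, from an insulin promoter, so it acts in beta cells, while the arrays read RNA of whole islets. PBA, a chemical chaperone that also inhibits histone deacetylases, was dissolved in water and given at 1 g/kg/day for 12 weeks from the age of 8 weeks. The labels leave unstated whether mice were pooled for the 2 arrays of a group, and p-values therefore cover only the spread between these samples.

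The respiratory chain carries electrons from NADH and succinate to oxygen and pumps protons across the inner mitochondrial membrane, and ATP synthase uses that proton gradient to make ATP. Complex I takes electrons from NADH, complex II from succinate, complex III passes them to cytochrome c, and complex IV passes them to oxygen. In beta cells a rise of ATP with glucose closes potassium channels and starts insulin release, which makes this chain part of glucose sensing. Most subunits are encoded in the nucleus, and these are the ones the symbols above name. Several complex IV subunits exist as a ubiquitous form and a form restricted to muscle, lung or testis.

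Levels are RMA values on the log2 scale as deposited, with 1 decimal. Background was read from non-specific control probe sets (median 3.10, 95th percentile 4.68). Of the 74 genes, 67 were above that percentile on all 8 arrays, 4 were at or below it on all 8, and 3 lay on either side of it. The 4 were the restricted complex IV isoforms Cox4i2, Cox7a1, Cox7b2 and Cox8b, and the 3 were Cox6b2, Cox8c and Ndufa4l2. The gene with the highest mean in each class was Ndufa1 in complex I (11.9), Ndufaf8 among complex I assembly factors (9.33), Sdha in complex II (10.5), Sdhaf4 among complex II assembly factors (8.76), Uqcrq in complex III (10.6) and Cox6a1 in complex IV (12.1). The lowest were Ndufa4l2 (5.06), Ndufaf1 (6.23), Sdhd (6.24), Sdhaf3 (7.18), Uqcrc1 (9.44) and Cox7b2 (3.49). Probe sets differ in how brightly they read, so these levels do not rank the transcripts of different genes.

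The levels moved little over the study. From the lowest to the highest of the 8 arrays the median gene of the family spanned 0.3 log2 units, against 0.5 for all genes, and 59 of the 74 genes spanned 0.5 or less. The widest was Cox6a2, with a span of 1.5. The complex I subunit Ndufv2 spanned 0.1, the least of the family. Cox6b2, a testis form that was close to the controls, spanned 1.0 through its value of 4.9 on the array of untreated wild type 1.

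**Figure D1:**
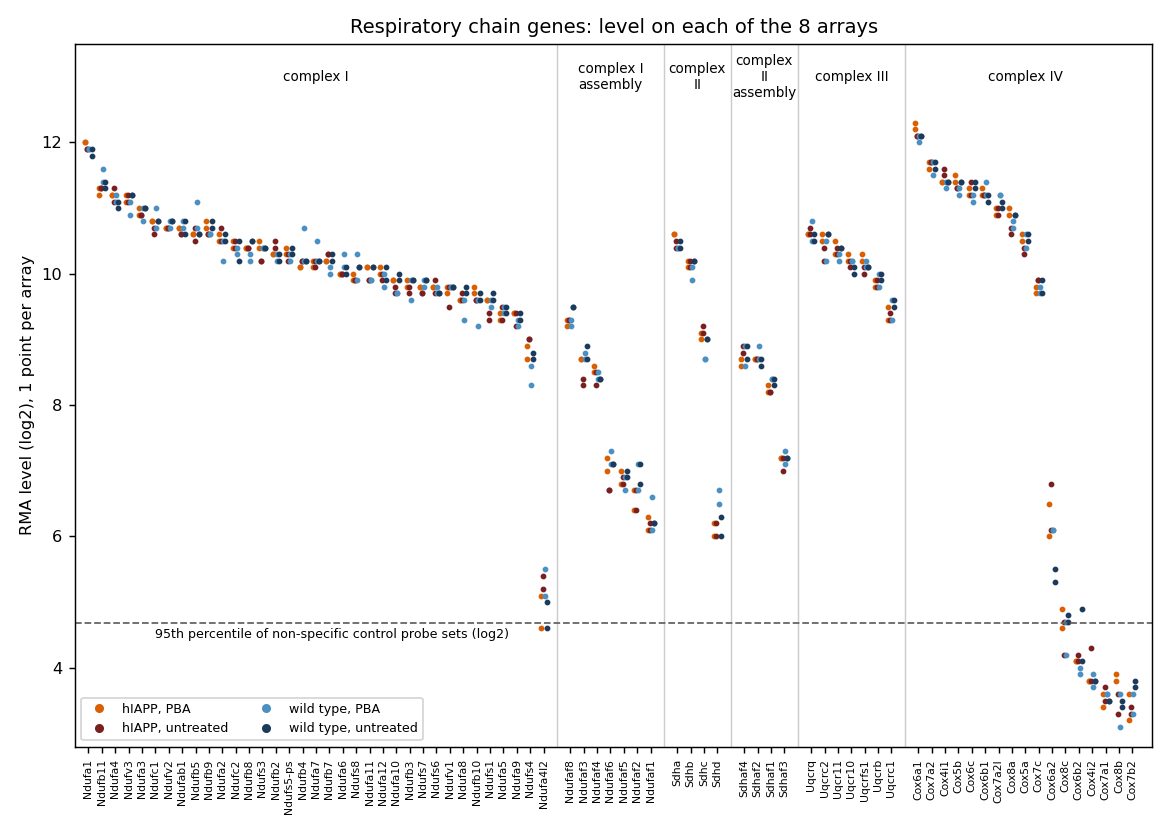
RMA level (log2, vertical axis) of each of the 74 genes on each of the 8 arrays, grouped by complex and coloured by group. Each point is 1 array, and the dashed line marks background (95th percentile of control probe sets, 4.68). Most genes form a tight column well above the line, while the restricted complex IV isoforms at the right lie near or under it.

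On 2 arrays a measure stood apart. On the array of PBA-treated wild type 1 the median of the hybridisation spike-ins was 7.1, beside 9.8 to 10.2 on the remaining 7. On PBA-treated hIAPP 1 the median of the acinar markers was 8.8, beside 10.4 to 12.5 on the others. Of the 74 genes, 20 differed by 0.3 or more between the arrays of PBA-treated wild-type islets, against 5 in PBA-treated hIAPP, 6 in untreated hIAPP and 5 in untreated wild-type islets. The standard deviation of this difference between arrays was 0.224 for the 74 genes and 0.281 for all genes in PBA-treated wild-type islets. In the other groups it was 0.138 to 0.167 for the 74 genes and 0.258 to 0.267 for all genes. The median over all genes was 5.9 on both untreated hIAPP arrays and 5.7 on the other 6, so that centring each array on its median moves a difference against untreated hIAPP islets by 0.2.

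Other cells of the preparation differed between groups. Islet endocrine markers had a summed level (log2) of 16.09 to 16.14 in PBA-treated hIAPP, 15.96 to 15.97 in untreated hIAPP, 16.04 to 16.17 in PBA-treated wild-type and 16.04 to 16.13 in untreated wild-type islets, and all 11 were above the controls. These sums are carried by the brightest probe sets. Singly, 8 of the 11 had a negative difference in untreated hIAPP against untreated wild-type islets, with a median of -0.20 beside -0.05 for all genes, and Ucn3, a gene of mature beta cells, was lower past the threshold (-0.85, adjusted p = 0.0051, limma). With PBA in hIAPP islets 9 of the 11 were positive, with a median of 0.25 beside 0.00 for all genes, and Isl1, an islet transcription factor, was higher (0.60, adjusted p = 0.0163, limma). In untreated hIAPP against untreated wild-type islets, 17 of 20 macrophage markers, 15 of 17 connective tissue and mural cell markers and 10 of 14 endothelial markers were higher past the threshold. The summed macrophage level was 12.81 to 12.89 in PBA-treated hIAPP, 13.66 to 13.94 in untreated hIAPP, 11.66 to 11.73 in PBA-treated wild-type and 12.13 to 12.14 in untreated wild-type islets. Connective tissue markers summed to 13.13 to 13.27 in PBA-treated hIAPP, 14.32 to 14.51 in untreated hIAPP, 12.34 to 12.52 in PBA-treated wild-type and 12.45 to 12.64 in untreated wild-type islets, with Col1a2 and Pdgfra at or below the controls on every array. Endothelial markers summed to 11.93 on both PBA-treated hIAPP arrays, 12.55 to 12.63 in untreated hIAPP, 11.94 to 12.00 in PBA-treated wild-type and 11.92 to 12.01 in untreated wild-type islets. Acinar markers summed to 13.39 to 14.84 in PBA-treated hIAPP, 15.73 to 16.63 in untreated hIAPP, 15.43 to 16.28 in PBA-treated wild-type and 15.31 to 16.57 in untreated wild-type islets, with Rbpjl at or below the controls throughout. The part of these cells in the differences below was not tested, apart from a fit with the acinar level as a covariate. In RNA of whole islets, fewer cells of a type and less RNA per cell cannot be told apart.

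RefSeq promoter windows, which reach from 250 bases before the start of a gene to 50 after it on GRCm38.p6, were at hand for 59 of the 74 genes. They were searched on both strands for short motifs of regulators known from mitochondrial genes. The NRF1 motif (GCATGCGC) was in 15.3% of the 59 windows, against 4.61% of the 13587 array genes that have a window. The ETS motif bound by GABP (CCGGAAG) was in 23.7% against 15.0%, and the YY1 motif (AAGATGGC) was in 13.6% against 4.11%. Any of these was in 45.8% of the family's windows and in 21.7% of all windows of array genes, while the TATA box (TATAAA) was in 11.9% and 11.8%. In no window of the family did hits of different motifs share a base.

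The windows below show each kind of promoter beside genes that recur in the results, with every hit of these motifs in capitals, 5′ to 3′ along the gene. Cox6a1 and Ndufa11 hold the NRF1 motif on both strands, as 1 palindrome. Cox6a1 also holds the ETS motif, read on the opposite strand. Cox8a holds the ETS motif at 2 places, 1 across its start and 1 after it. Ndufs7 holds the YY1 motif after its start and a TATA box before it. Cox8b, the heart and skeletal muscle form of subunit VIII, holds a TATA box just after its annotated start and none of the other motifs, and Ndufaf3 holds none.
Cox6a1, chr5:115348909-115349208, minus strand: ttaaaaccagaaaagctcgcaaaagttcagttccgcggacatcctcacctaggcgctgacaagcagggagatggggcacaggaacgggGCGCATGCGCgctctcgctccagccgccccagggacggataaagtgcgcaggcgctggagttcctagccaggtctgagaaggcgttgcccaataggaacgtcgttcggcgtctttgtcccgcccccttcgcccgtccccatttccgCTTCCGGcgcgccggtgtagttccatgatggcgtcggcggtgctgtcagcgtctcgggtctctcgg
Ndufa11, chr17:56717512-56717811, plus strand: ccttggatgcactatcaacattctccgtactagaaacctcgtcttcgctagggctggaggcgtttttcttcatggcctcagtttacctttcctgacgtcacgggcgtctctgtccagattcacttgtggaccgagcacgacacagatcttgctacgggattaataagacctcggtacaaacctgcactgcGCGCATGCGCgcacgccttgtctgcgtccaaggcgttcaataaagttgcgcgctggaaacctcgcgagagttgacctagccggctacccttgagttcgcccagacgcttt
Cox8a, chr19:7217567-7217866, minus strand: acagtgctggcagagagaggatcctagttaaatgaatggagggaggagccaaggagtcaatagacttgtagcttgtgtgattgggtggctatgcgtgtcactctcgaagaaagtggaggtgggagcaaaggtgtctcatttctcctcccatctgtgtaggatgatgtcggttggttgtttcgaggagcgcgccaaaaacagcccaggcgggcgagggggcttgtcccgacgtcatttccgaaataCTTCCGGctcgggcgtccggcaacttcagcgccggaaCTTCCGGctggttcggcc
Ndufs7, chr10:80249199-80249498, plus strand: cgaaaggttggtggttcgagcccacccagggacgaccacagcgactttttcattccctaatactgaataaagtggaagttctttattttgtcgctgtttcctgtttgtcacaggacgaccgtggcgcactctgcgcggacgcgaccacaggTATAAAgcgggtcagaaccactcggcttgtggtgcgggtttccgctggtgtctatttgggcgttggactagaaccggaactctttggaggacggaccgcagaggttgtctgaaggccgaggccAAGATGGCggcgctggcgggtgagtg
Cox8b, chr7:140900397-140900696, minus strand: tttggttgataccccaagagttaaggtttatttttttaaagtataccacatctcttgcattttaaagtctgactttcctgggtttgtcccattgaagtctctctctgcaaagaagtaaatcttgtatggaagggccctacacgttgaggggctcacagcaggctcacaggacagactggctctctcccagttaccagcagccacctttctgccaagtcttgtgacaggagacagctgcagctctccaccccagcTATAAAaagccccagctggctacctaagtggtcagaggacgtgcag
Ndufaf3, chr9:108567387-108567686, minus strand: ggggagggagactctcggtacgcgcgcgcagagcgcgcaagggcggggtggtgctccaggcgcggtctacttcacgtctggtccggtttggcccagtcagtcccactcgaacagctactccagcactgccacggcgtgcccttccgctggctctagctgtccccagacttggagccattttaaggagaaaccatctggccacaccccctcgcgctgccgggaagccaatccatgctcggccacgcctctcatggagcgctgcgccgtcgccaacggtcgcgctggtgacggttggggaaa
These matches describe the letters of the windows and say nothing of binding in islets. None of the 4 genes with a window that were not above the controls on every array held the NRF1, ETS or YY1 motif.

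What the transgene changed without treatment is read from untreated hIAPP against untreated wild-type islets. The respiratory chain as a whole differed little: of the 74 genes, 1 was higher and 1 lower past an adjusted p of 0.05 (limma, Benjamini-Hochberg over all 17097 genes). Over all genes 7.77% were higher and 3.19% lower, 11.0% in all. The member median was -0.05 on the log2 scale and that of all genes -0.05. By the unadjusted p under 0.05, 6 members passed, and the share over all genes was 25.1%. The 95% interval lay within 0.5 of no change for 60 members, 81.1% of them, against 45.8% of all genes, with a median standard error (SE) of 0.110 for members and 0.140 for all genes.

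The gene that rose was Cox6a2, the heart and skeletal muscle form of complex IV subunit VIa. It had a level of 6.1 and 6.8 on the untreated hIAPP arrays, against 5.3 and 5.5 on the untreated wild-type arrays. The groups did not overlap, and the untreated hIAPP arrays were 0.7 apart, the widest gap of any member in that group. The difference was 1.05 (SE 0.25, 95% interval 0.47 to 1.63, adjusted p = 0.0381, limma). Its ubiquitous partner Cox6a1 had 12.1 on both arrays of either group, a difference of 0.00 (95% interval -0.23 to 0.23).

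The other muscle forms of complex IV were not above the controls. Cox7a1 had 3.7 and 3.5 in untreated hIAPP and 3.5 on both arrays of untreated wild-type islets, and Cox8b had 3.3 and 3.6 in untreated hIAPP and 3.5 and 3.4 in untreated wild-type islets, all within the range of the controls. Of 14 muscle markers, 10 were at or below the controls on all 8 arrays, among them Ckm, Myh1, Myh2, Myh4 and Tnnt3. In untreated hIAPP against untreated wild-type islets 1 muscle marker was higher and 1 lower past the threshold. Des, an intermediate filament gene also used by mural cells, averaged 6.75 in untreated hIAPP and 5.80 in untreated wild-type islets (0.95, adjusted p = 0.0035, limma). Actn3, a gene of fast muscle fibres, averaged 4.15, below the controls, in untreated hIAPP and 5.4 in untreated wild-type islets (adjusted p = 0.0006, limma). The summed muscle level was 7.99 to 8.00 in PBA-treated hIAPP, 8.19 to 8.30 in untreated hIAPP, 7.99 to 8.01 in PBA-treated wild-type and 8.18 to 8.20 in untreated wild-type islets.

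The gene that fell was Ndufaf3, an assembly factor that helps build the quinone-binding part of complex I. It had 8.4 and 8.3 on the untreated hIAPP arrays, against 8.7 and 8.9 on the untreated wild-type arrays. The 4 arrays with PBA lay at 8.7 to 8.8, so both untreated hIAPP arrays were the lowest of the 8. The difference was -0.45 (SE 0.11, 95% interval -0.71 to -0.19, adjusted p = 0.0412, limma).

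Neither call was stable. When any 1 of the 8 arrays was left out, Cox6a2 differed by 0.70 to 1.40 with an adjusted p of 0.0506 to 0.2215, and Ndufaf3 by -0.55 to -0.35 with an adjusted p of 0.055 to 0.1813. With the acinar level as a covariate the adjusted p was 0.0567 for Cox6a2 and 0.0741 for Ndufaf3. Neither passed with the 4 compared arrays alone. Both passed with probe sets averaged, a filter on low values, another variance prior, or centring on array medians or means. Cox6a2 also passed with a replicate block, and Ndufaf3 did not. Centred on array medians, 1 member was higher (1.35%, against 6.33% of all genes) and 14 were lower (18.9%, against 19.1%), and all genes then had a median of -0.25, the same as the members. The share of calls that were higher over all genes was 70.9% as deposited and 24.9% with that centring. With each array centred on its mean it was 61.7%.

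**Figure D2:**
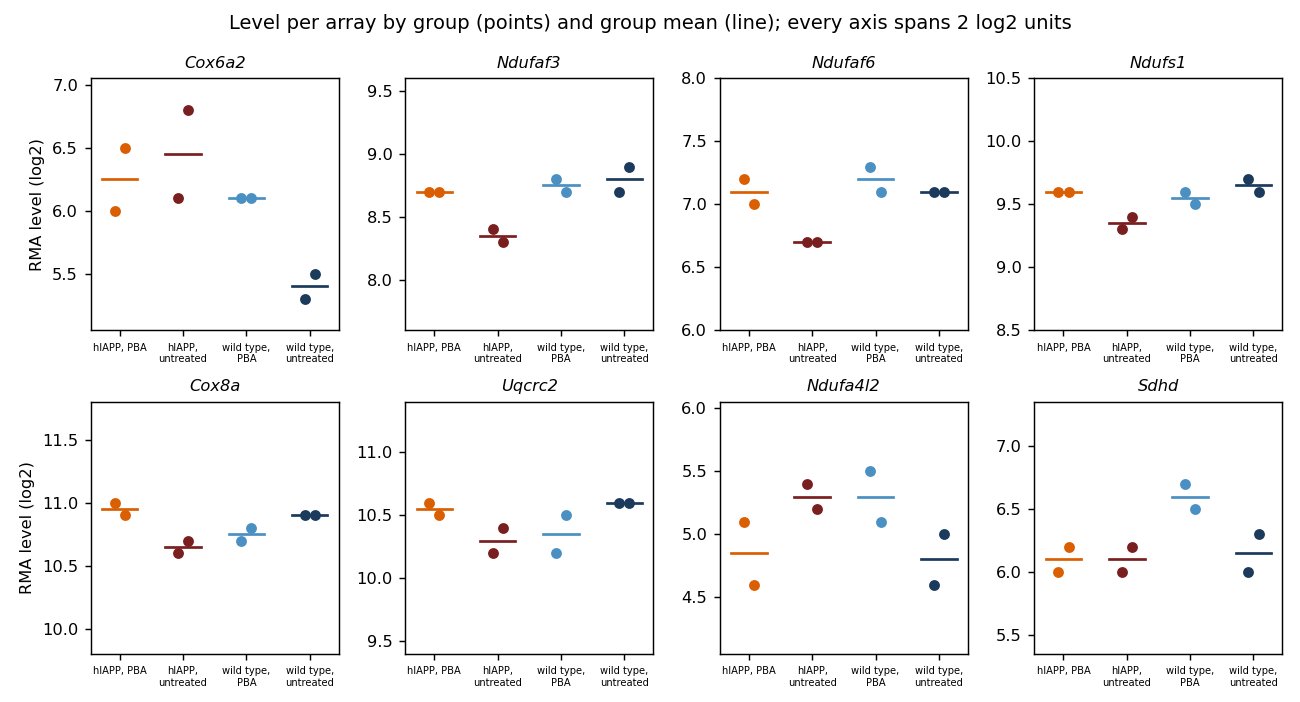
RMA level (log2) of 8 named genes on each array (points) with the group mean (line), for PBA-treated hIAPP, untreated hIAPP, PBA-treated wild-type and untreated wild-type islets from left to right. Every vertical axis spans 2 log2 units. Cox6a2 is lowest in untreated wild-type islets, and Ndufaf3, Ndufaf6 and Ndufs1 are lowest in untreated hIAPP islets.

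Of the 7 complex I assembly factors, 6 had a negative difference, against 51.0% of all genes, and 4 lay wholly lower without overlap of arrays, against 25.2%. Their median was -0.20, beside -0.05 for all genes. Beside Ndufaf3, Ndufaf6 had 6.7 on both untreated hIAPP arrays, against 7.1 on both untreated wild-type arrays. That difference of -0.40 (SE 0.12, adjusted p = 0.0736) did not pass. Fitted to the 4 untreated arrays alone Ndufaf6 was the only member to pass. It also passed in 3 alternatives that kept all 8 arrays (a filter on low values and either centring). It did not pass with probe sets averaged, with another variance prior, with the acinar covariate or with a replicate block.

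The remaining assembly factors gave small or uncertain differences. Ndufaf2, which acts late in assembly, had 6.4 and 6.7 in untreated hIAPP and 6.8 and 7.1 in untreated wild-type islets, a difference of -0.40 with an SE of 0.19. Ndufaf8 had 9.3 on both untreated hIAPP arrays and 9.5 on both untreated wild-type arrays. Ndufaf1, Ndufaf4 and Ndufaf5 differed by -0.05, 0.00 and -0.10. For complex II, Sdhaf1 and Sdhaf3, which serve the iron-sulphur subunit, differed by -0.15 and -0.10. Sdhaf2, which attaches the flavin to Sdha, and Sdhaf4 differed by 0.05 each.

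Among the core subunits of complex I, which hold its flavin and iron-sulphur clusters, the differences ran from -0.30 to -0.10. Ndufs1, the large iron-sulphur subunit of the NADH-oxidising arm, had 9.3 and 9.4 in untreated hIAPP against 9.7 and 9.6 in untreated wild-type islets. The groups did not overlap (-0.30, SE 0.10, adjusted p = 0.1094). Ndufs3 had 10.2 on both untreated hIAPP arrays against 10.4 on both untreated wild-type arrays, and Ndufs7 had 9.7 on both untreated hIAPP against 9.9 on both untreated wild-type arrays. Ndufs8 differed by -0.20, Ndufv1 by -0.15 and Ndufv2 by -0.10. None passed the adjusted threshold, and of all 35 complex I genes 24 had a negative difference, 9 a positive one and 2 none, with a class median of -0.05.

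The accessory subunits of complex I spread around no change. Ndufa4l2, a hypoxia-responsive relative of Ndufa4, had the largest positive difference, with 5.4 and 5.2 in untreated hIAPP against 4.6 and 5.0 in untreated wild-type islets (0.50, SE 0.22, adjusted p = 0.2180). It lay near the controls. Ndufa4 itself differed by 0.15 (SE 0.11). Ndufs4, which is needed for full complex I activity, differed by 0.25 through the brightest of its probe sets, and by -0.50 through a dimmer one with a mean of 5.65, so its direction is unsettled. Ndufs5-ps differed by -0.10.

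Complexes II and III showed no member past the threshold. The flavoprotein Sdha and the iron-sulphur protein Sdhb differed by 0.00 and -0.05, and the membrane anchors Sdhc and Sdhd by 0.15 and -0.05. In complex III the core proteins Uqcrc1 and Uqcrc2 differed by -0.20 and -0.30, and the Rieske protein Uqcrfs1 by -0.05. Uqcrc2 had 10.2 and 10.4 in untreated hIAPP against 10.6 on both arrays of untreated wild-type islets, without overlap (SE 0.13, adjusted p = 0.2109). Its other probe set above the controls also differed by -0.30.

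In complex IV, apart from Cox6a2, no subunit passed. Cox8a, the ubiquitous form of subunit VIII, had 10.6 and 10.7 in untreated hIAPP against 10.9 on both untreated wild-type arrays (-0.25, SE 0.10, adjusted p = 0.1703), and its other probe set also differed by -0.25. Cox5a and Cox5b, next to the catalytic core, differed by -0.20 and -0.10. Cox4i1, the ubiquitous form of subunit IV, differed by 0.15. The ubiquitous forms Cox6b1 and Cox7a2 differed by 0.05 each. Over the family, the untreated hIAPP arrays lay wholly under the untreated wild-type arrays for 23 genes (31.1%, against 25.2% of all genes) and wholly above them for 6 (8.11%, against 20.8%).

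**Figure D3:**
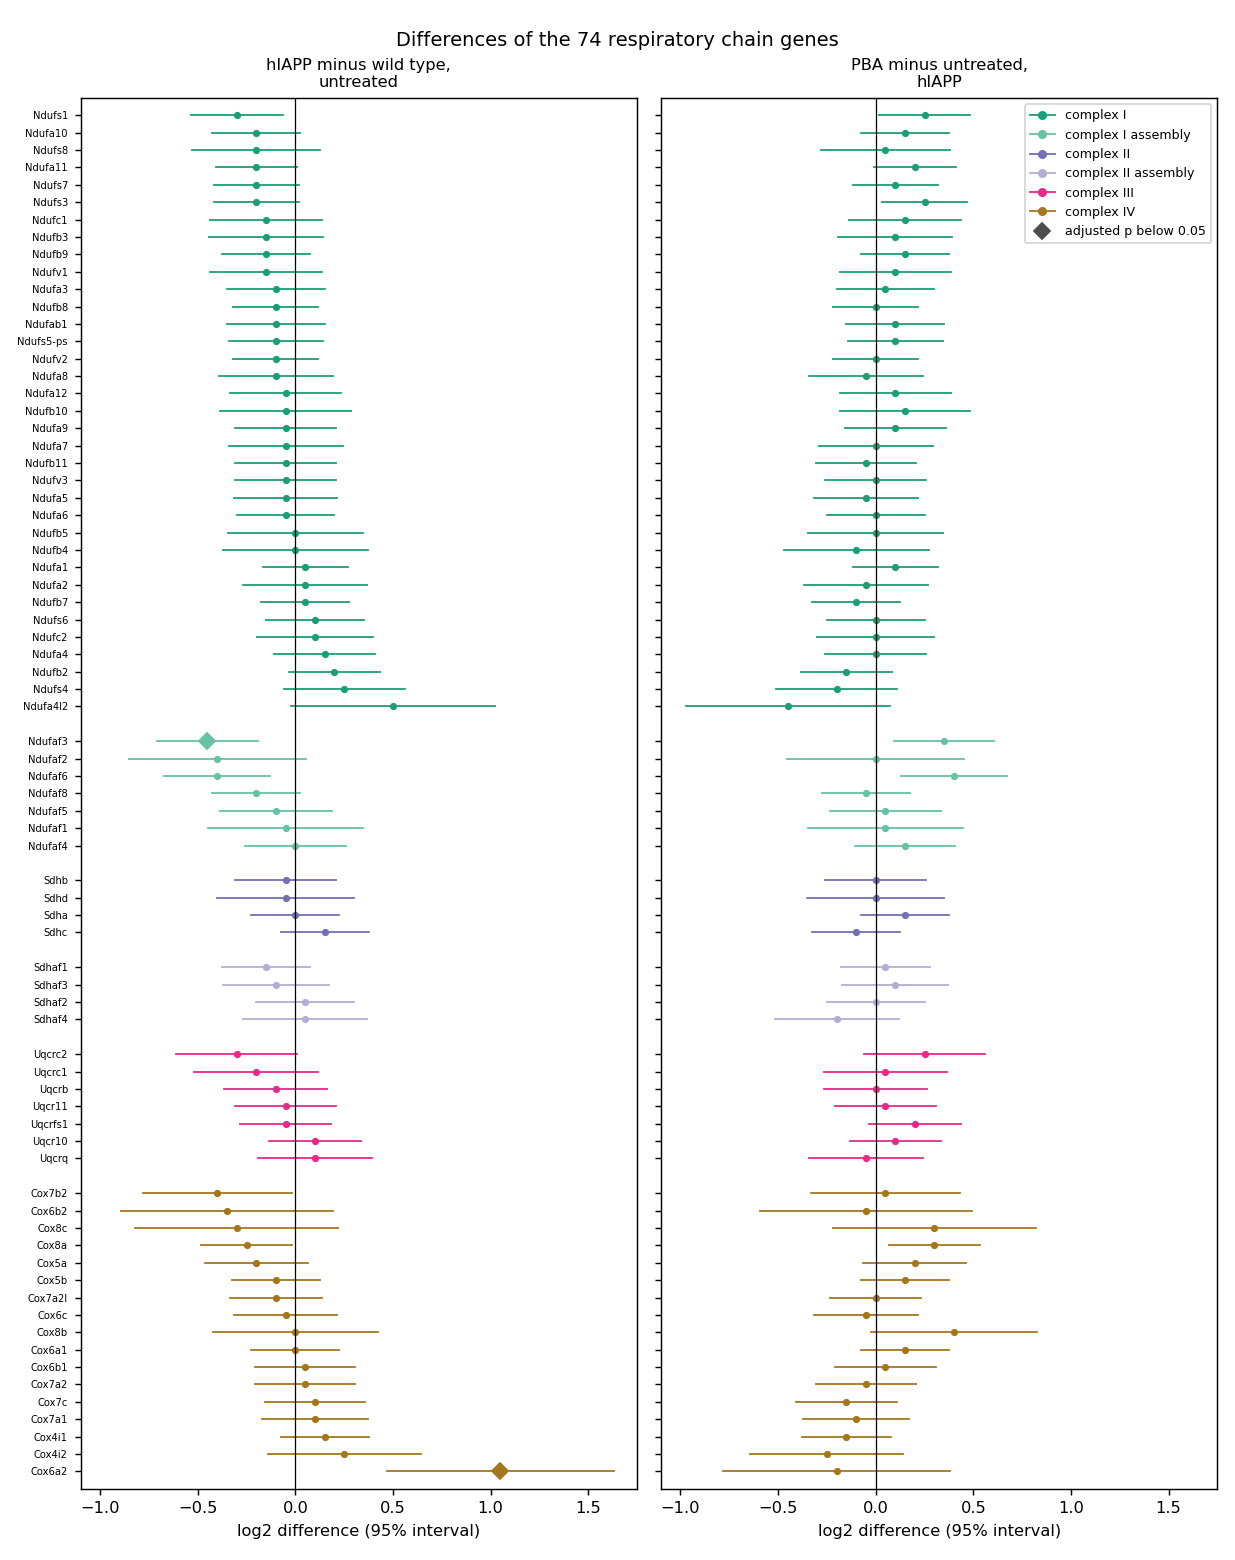
Log2 difference (points) with its 95% interval (lines) for each of the 74 genes, by complex, in untreated hIAPP minus untreated wild-type islets (left) and in PBA-treated minus untreated hIAPP islets (right). Diamonds mark an adjusted p below 0.05, which Cox6a2 (1.05) and Ndufaf3 (-0.45) had at the left and no gene had at the right.

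PBA in hIAPP mice moved no member past the threshold. This comparison asks what the treatment changed in islets that carry the transgene, and it shares the untreated hIAPP arrays with the comparison above, so that the signs of the comparisons are tied. Of the 74 genes, 0 passed (limma), where 8.09% of all genes did (1.78% higher and 6.32% lower). The calls over all genes, 304 higher and 1080 lower, became 0 and 14 with the 4 compared arrays alone, and 0 and 80 with the acinar covariate. At an unadjusted p under 0.05, 5 were higher and 0 lower, against 23.0% of all genes in either direction. With a variance prior that follows intensity and is robust to outliers, 3 passed (Cox8a, Ndufaf3 and Ndufs3), all higher, 4.05% of members against 4.90% of all genes higher and 13.4% in either direction. The median was 0.05 for members and 0.00 for all genes, and 62 members (83.8%, against 47.4% of all genes) had a 95% interval within 0.5 of no change.

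The members with the largest positive differences included those that had been low without treatment. Ndufaf6 had 7.2 and 7.0 in PBA-treated hIAPP, against 6.7 on both arrays of untreated hIAPP islets (0.40, SE 0.12, adjusted p = 0.0854). Ndufaf3 had 8.7 on both PBA-treated hIAPP arrays, against 8.4 and 8.3 on the untreated hIAPP arrays (0.35, SE 0.11, adjusted p = 0.1046). Neither pair of groups overlapped. Ndufs1 had 9.6 on both PBA-treated hIAPP arrays against 9.3 and 9.4 on the untreated ones (0.25, SE 0.10, adjusted p = 0.1870). Ndufs3 had 10.5 and 10.4 in PBA-treated against 10.2 on both arrays of untreated hIAPP islets (0.25, SE 0.09, adjusted p = 0.1604). Cox8a had 11.0 and 10.9 in PBA-treated against 10.6 and 10.7 in untreated hIAPP islets (0.30, SE 0.10, adjusted p = 0.1233).

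These 5 are the genes that passed the unadjusted threshold. For Cox8a the other probe set gave the same 0.30. Cox6a2 had 6.0 and 6.5 in PBA-treated hIAPP against 6.1 and 6.8 in untreated hIAPP islets, and these overlapped (-0.20, 95% interval -0.78 to 0.38). Ndufa4l2 had 5.1 and 4.6 in PBA-treated against 5.4 and 5.2 in untreated hIAPP islets (-0.45, SE 0.22). Over the family, the PBA-treated arrays lay wholly above the untreated hIAPP arrays for 20 genes (27.0%, against 22.6% of all genes) and wholly below them for 8 (10.8%, against 20.8%).

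By complex the medians were 0.00 for complex I, 0.05 for its assembly factors, 0.00 for complex II, 0.05 for complex III and 0.00 for complex IV. Sdha differed by 0.15, but by -0.10 through its other probe set above the controls, so its direction is unsettled. Sdhb and Sdhd differed by 0.00 and Sdhc by -0.10. Uqcrc2 differed by 0.25, Uqcrfs1 by 0.20 and Uqcrc1 by 0.05. Centred on array medians, 13 members passed, all higher (17.6%, against 15.3% of all genes), when the median of all genes was 0.20 and that of the members 0.25. Over all genes the share of calls that were higher was 22.0% as deposited and 74.6% with that centring. With each array centred on its mean it was 33.5%.

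PBA in wild-type mice also moved no member past the threshold (limma), where 0.292% of all genes passed. With the 4 compared arrays alone, 0 of all genes passed. At an unadjusted p under 0.05, 2 members were higher and 6 lower, 8 in all, against 10.5% of all genes. The medians were -0.05 for members and 0.00 for all genes. The array of PBA-treated wild type 1, whose hybridisation controls were low, is 1 of the 2 treated arrays here.

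The higher ones were Cox6a2 and Sdhd. Cox6a2 had 6.1 on both PBA-treated wild-type arrays, against 5.3 and 5.5 on the untreated ones, without overlap (0.70, SE 0.25, adjusted p = 0.3866). It was thus lowest in untreated wild-type islets of all 4 groups. Sdhd, a membrane anchor of complex II, had 6.7 and 6.5 in PBA-treated wild-type against 6.0 and 6.3 in untreated wild-type islets, without overlap (0.45, SE 0.15, adjusted p = 0.3565). Its partner anchor Sdhc ran the other way, with 8.7 on both PBA-treated arrays against 9.0 on both untreated arrays (-0.30, SE 0.10, adjusted p = 0.3347).

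Among the 6 lower genes, beside Sdhc, were the complex I accessory subunits Ndufa8, Ndufa10 and Ndufb8, the assembly factor Ndufaf8 and the testis form Cox6b2. Ndufa8 had 9.3 and 9.6 in PBA-treated against 9.8 and 9.7 in untreated wild-type islets (-0.30), a difference of -0.15 without the array of PBA-treated wild type 1. None of these 8 genes passed in any alternative run. On arrays of PBA-treated wild-type islets, 18 genes (24.3%, against 14.9% of all genes) lay wholly below the untreated ones and 7 (9.46%, against 13.6%) wholly above.

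The effect of the transgene under PBA, read from PBA-treated hIAPP against PBA-treated wild-type islets, passed for 0 members (limma), where 0.415% of all genes passed. By the unadjusted p, 6 members passed, against 12.1% of all genes (6.28% higher and 5.84% lower), and the medians were 0.05 for members and 0.00 for all genes. The smallest adjusted p, 0.2278, belonged to Sdhc, which had 9.1 and 9.0 in PBA-treated hIAPP against 8.7 on both PBA-treated wild-type arrays (0.35, SE 0.10). Sdhd had 6.0 and 6.2 in PBA-treated hIAPP against 6.7 and 6.5 in PBA-treated wild-type islets (-0.50, SE 0.15, adjusted p = 0.2741). For both anchors the 2 groups did not overlap, and they ran in opposite directions.

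The 2 genes that passed without treatment did not pass under PBA. Ndufaf3 had 8.7 on both PBA-treated hIAPP arrays against 8.8 and 8.7 on PBA-treated wild-type arrays (-0.05, SE 0.11). Cox6a2 had 6.0 and 6.5 in PBA-treated hIAPP against 6.1 on both PBA-treated wild-type arrays (0.15, 95% interval -0.43 to 0.73). Of the 74 genes, 58 (78.4%, against 53.7% of all genes) had a 95% interval within 0.5 of no change, as did 57 (77.0%, against 56.1%) for PBA in wild-type mice.

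Whether PBA acted differently in the genotypes was tested as an interaction, the PBA difference in hIAPP minus that in wild-type islets. It passed for 0 members (limma), where 1.96% of all genes passed (0.269% positive and 1.69% negative). By the unadjusted p, 6 were positive and 2 negative, 8 in all, against 16.2% of all genes (6.62% positive and 9.63% negative). With the intensity-dependent, robust prior, 3 passed (Cox8a, Ndufa11 and Uqcrc2), all positive, 4.05% of members against 1.78% of all genes positive and 6.2% in either direction. Over all genes the calls of the interaction, 46 positive and 289 negative, became 0 and 0 to 3 when any 1 array was left out, and 1 and 3 with the acinar covariate. The median was 0.10 for members and 0.00 for all genes. Of the members 48 were positive (64.9%, against 49.0% of all genes) and 23 negative (31.1%, against 44.4%). Interactions are read less precisely, with a median SE of 0.155 for the members. An interval within 0.5 of no change was found for 21 members (28.4%, against 17.6% of all genes).

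For 7 genes the arrays did not overlap in either genotype and the signs were opposite. Cox5b, Cox8a, Ndufa10, Ndufa11, Ndufb9 and Uqcrc2 were higher with PBA in hIAPP and lower with PBA in wild-type islets, 6 of 74 where 2.72% of all genes did so, and Ndufa4l2 did the reverse, as did 2.38% of all genes. The rule for overlap does not weigh size, and several of these differences are 0.15.

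Ndufa11, which holds the membrane arm of complex I together, had 10.1 on both PBA-treated hIAPP arrays against 9.9 on both untreated ones, and 9.9 on both PBA-treated wild-type arrays against 10.1 on both untreated ones. Its interaction was 0.40 (SE 0.13, adjusted p = 0.1659). Uqcrc2 had 10.6 and 10.5 in PBA-treated against 10.2 and 10.4 in untreated hIAPP islets, and 10.2 and 10.5 in PBA-treated against 10.6 on both arrays of untreated wild-type islets (interaction 0.50, SE 0.19, adjusted p = 0.2398). Cox8a had an interaction of 0.45 (SE 0.14, adjusted p = 0.1654), but its other probe set was 0.15 higher, not lower, with PBA in wild-type islets. Ndufa4l2 had 5.5 and 5.1 in PBA-treated wild-type islets against 4.6 and 5.0 in untreated ones, and its interaction was -0.95 (SE 0.32, adjusted p = 0.1991). The interaction of Cox6a2 was -0.90 (SE 0.35, adjusted p = 0.2558), and ran from -1.25 to -0.55 with each array left out, the smallest without untreated hIAPP 2.

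**Figure D4:**
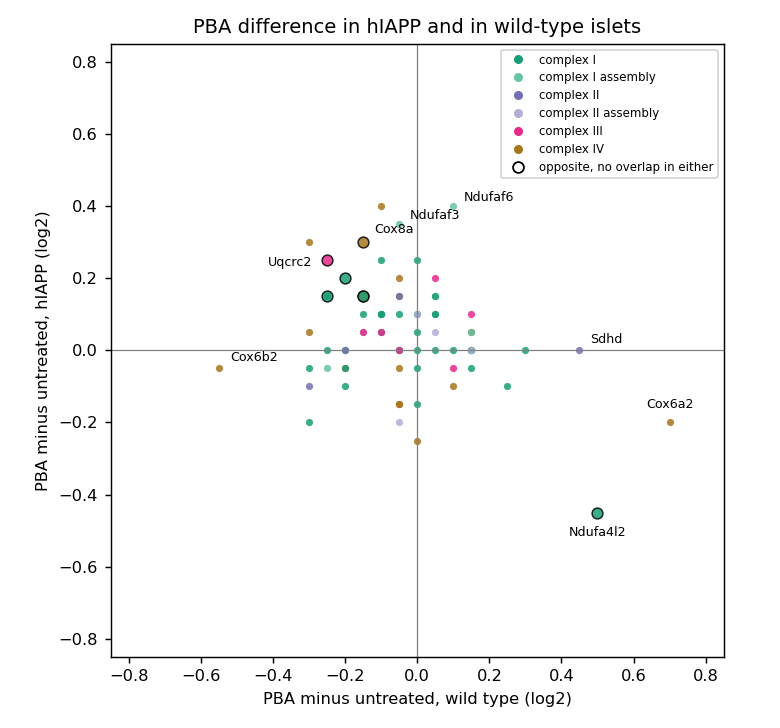
Log2 difference of each of the 74 genes with PBA in wild-type islets (horizontal axis) and in hIAPP islets (vertical axis), coloured by complex, where points can coincide since values have 1 decimal. Outlined points are the 7 genes with opposite signs and no overlap of arrays in either genotype. Most points lie within 0.3 of no change on both axes, with Cox6a2 and Ndufa4l2 at the lower right.

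The restricted isoforms can be set out over all 4 groups. Cox4i2, a lung and hypoxia form of subunit IV, read 3.7 to 4.3, Cox7a1 3.4 to 3.7, Cox7b2 3.2 to 3.8 and Cox8b 3.1 to 3.9 over the 8 arrays. All of these are at or below the 95th percentile of the controls. The counts and plots over the 74 genes include their differences, which compare probe sets not above background. Cox8c, a testis form, read 4.2 to 4.9. Their ubiquitous partners read 11.3 to 11.6 for Cox4i1, 11.5 to 11.7 for Cox7a2 and 10.6 to 11.0 for Cox8a.

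Where a gene had further probe sets above the controls, these did not always give a difference of the same sign as the one used. There were 40 such sets for 32 genes, and their differences lay a median of 0.10 from the set used in untreated hIAPP against untreated wild-type islets. The sign was opposite for 11 of the 40 there, for 8 with PBA in hIAPP, for 6 with PBA in wild-type islets and for 13 between genotypes under PBA. Apart from Ndufs4, the sets with opposite signs differed from each other by no more than 0.40. Cox6a2, Ndufaf3 and Ndufaf6 have 1 probe set each, so no further set bears on them.

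Over the 8 arrays, the genes most like Cox6a2 were Caskin2, Zfp185 and Clic3, with Pearson's r of 0.972, 0.964 and 0.949. Of these, Clic3 read below the 95th percentile of the controls on every array and Zfp185 lay on either side of it, so their order has no weight. For Ndufaf3 they were Tigar, Cgrrf1 and Aak1, with r of 0.987, 0.982 and 0.981. Within the family, Ndufaf3 was most like Ndufs7 (0.899), Ndufaf6 (0.882) and Ndufs3 (0.842), and Cox6a2 was most like Uqcr10 (0.725). These values describe 8 arrays that share the 4 groups.

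Genes next to the respiratory chain are given for comparison, from lists of ATP synthase, the tricarboxylic acid cycle, assembly and glycolysis. Of 18 ATP synthase genes, 0 passed in any of the 5 tests (limma), with 2 to 4 at an unadjusted p under 0.05, where 10.5% to 25.1% of all genes were by comparison. In the first of these tests 3 were lower in untreated hIAPP islets, with Atp5b and Atpaf2 at -0.35 each. Under PBA in hIAPP islets 4 were higher, among them Atp5g1 at 0.30. The median in untreated hIAPP against untreated wild-type islets was -0.05, equal to that of complexes I to IV.

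The tricarboxylic acid cycle, which feeds the chain, held several calls. Of its 17 genes, 3 were lower past the threshold in untreated hIAPP islets, against 3.19% of all genes, and 15 had a negative difference, against 51.0%. The list median was -0.20, beside -0.05. Fumarate hydratase (Fh1) averaged 10.50 in untreated hIAPP and 11.05 in untreated wild-type islets (-0.55, SE 0.10, adjusted p = 0.0137). The isocitrate dehydrogenases Idh3a and Idh2 differed by -0.55 and -0.40 (adjusted p = 0.0177 and 0.0403). With PBA in hIAPP islets 2 were higher, Fh1 by 0.75 (adjusted p = 0.0060) and Idh3a by 0.50 (adjusted p = 0.0325), and the list had a median of 0.20. Neither passed with the 4 compared arrays alone, where 0 of all genes were higher. Fh1 was the only member of the list whose interaction passed (0.85, SE 0.14, adjusted p = 0.0365). Over all genes 46 interactions were positive past the threshold as deposited, and 1 with the acinar covariate. Complex II, the succinate dehydrogenase of that cycle, had a median of -0.025 in untreated hIAPP against untreated wild-type islets.

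Assembly genes outside the symbols above gave single calls. Over all genes 7.77% were higher and 3.19% lower past the threshold in untreated hIAPP against untreated wild-type islets. In untreated hIAPP against untreated wild-type islets, 1 of 10 further complex I assembly factors passed, Tmem186, which averaged 5.95 in untreated hIAPP and 6.85 in untreated wild-type islets (-0.90, SE 0.19, adjusted p = 0.0266). Of 26 genes for complex III and IV assembly and cytochrome c, Cox18, which inserts a mitochondrially made subunit of complex IV, was lower (-0.55, adjusted p = 0.0200). Higd1a, a hypoxia-responsive protein of complex IV, was higher, with means of 6.45 in untreated hIAPP and 5.65 in untreated wild-type islets (0.80, SE 0.12, adjusted p = 0.0072). Higd1a was also higher with PBA in wild-type islets (1.05, adjusted p = 0.0250), and its interaction was -1.35 (adjusted p = 0.0206). The wild-type call was absent with the 4 compared arrays alone, where 0 of all genes passed. Calls of the interaction over all genes mostly fell away in the alternatives given above. Pet100, a complex IV assembly factor, was lower with PBA in hIAPP islets (-0.50, adjusted p = 0.0353, limma). With PBA in wild-type islets Pet100 also differed by -0.50 but did not pass (adjusted p = 0.1797, limma).

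Glycolysis held calls in both directions. Ldha, which turns pyruvate to lactate, averaged 8.75 in untreated hIAPP and 7.40 in untreated wild-type islets (1.35, SE 0.15, adjusted p = 0.0022), and 7.45 in PBA-treated hIAPP against that 8.75 (-1.30, adjusted p = 0.0042). The hexokinase Hk1 averaged 6.10 in untreated hIAPP and 5.35 in untreated wild-type islets (0.75, adjusted p = 0.0121), and Hk2 also passed (adjusted p = 0.0200), with a mean of 5.10 in untreated hIAPP and of 4.55, below the controls, in untreated wild-type islets. Of 14 glycolysis genes, 3 were higher and 1 lower past the threshold, where 7.77% and 3.19% of all genes were. The macrophage, connective tissue and endothelial markers moved the same way as Ldha in these comparisons, and their part in it was not tested. Of 15 regulators of mitochondrial biogenesis and 14 outer membrane and carrier genes, 0 passed in any test (limma). At an unadjusted p under 0.05 there were 2 to 4 of the regulators and 0 to 2 of the carrier genes. The share of all genes at that unadjusted p was 10.5% to 25.1% by comparison.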

How the data were processed

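Total RNA of isolated islets was labelled with biotin and hybridised to Affymetrix arrays, 2 for each of 4 groups. The deposited table holds log2 values that the authors made with RMA, for which the affy package is named without a version, per the submitters' processing notes. RMA subtracts background, gives all arrays 1 distribution of probe values and summarises the probes of a set. Its values carry 1 decimal and were used as deposited. The number of arrays limits the precision, and so does the rounding.

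Of 45141 probe sets, 28898 name 1 gene symbol. Of the resulting 17097 genes, 7180 have several sets, and each of these is represented by its brightest set on average. The 104 control probe sets were used only for background and array quality. Members were found by symbol and assigned to a complex by its beginning.

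The comparisons used limma 3.58.1 (R 4.3.3). A single fit of 4 group means over all 8 arrays had 4 residual and 3.27 prior degrees of freedom. Tests were two-sided, with Benjamini-Hochberg adjustment over the 17097 genes of a comparison and a threshold of 0.05. The fit was tested on simulated data. Python 3.11.15 with pandas 2.3.3 and matplotlib 3.10.9 served for tables and plots. Promoters are those of RefSeq on GRCm38.p6.

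Named genes are the members past the threshold, the core subunits, the restricted isoforms with their partners, the assembly factors, the extremes of level and change, and up to 3 genes of each comparison list. The members and lists were chosen with earlier results of these data known. The alternatives were other probe set and array choices, a low-value filter, another variance prior, another scaling, an acinar covariate and a replicate block. Centring on array means was chosen after seeing the data. Mitochondrially encoded subunits were not analysed here.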

Additional observations from a re-analysis of the deposited data

How the results depend on the processing

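The number of member genes past the threshold depended on the processing mainly for untreated hIAPP against untreated wild-type islets, with 1 higher and 1 lower as deposited. The higher count was 0 with the 4 compared arrays alone and 0 with the acinar covariate. With each array left out in turn it was 0 to 0. The lower count was 2 with a mean of at least 5, 4 with the trended robust prior, 0 with the acinar covariate, 14 with median centring (near the share of all genes) and 2 with mean centring, and 0 to 1 with each array left out. The 1 gene then called, without untreated wild type 2, was Cox6b2, which lay near the controls. For PBA in hIAPP islets the higher count of 0 became 1 with the mean over probe sets (Ndufa11), 3 with the trended robust prior and 13 with median centring. For the interaction it became 3 with the trended robust prior. Median centring shifted all genes by 0.20, which by construction moves every difference against untreated hIAPP islets. The cause of the other changes was not tested. Neither Cox6a2 nor Ndufaf3, the members past the threshold, reversed its direction in the alternatives run. The direction of the named genes from the comparison lists was not checked there. PBA in wild-type islets and the transgene under PBA gave 0 members in each alternative run. Over all genes, calls in untreated hIAPP against untreated wild-type islets were 1329 higher and 545 lower as deposited, 353 and 130 with the 4 compared arrays alone, 1660 and 1038 with the trended robust prior, and 1083 and 3266 with median centring. With mean centring they were 1299 and 808.

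Replicate numbers are shared by the groups. Deviations of same-numbered arrays had correlations of -0.14 to 0.098 over the 6 pairs of groups, so the numbers were not taken to pair the samples. With the replicate block, 1 member was higher (Cox6a2, adjusted p = 0.0268) and 0 were lower (Ndufaf3, adjusted p = 0.073) in untreated hIAPP against untreated wild-type islets, and 0 passed in the other comparisons.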

Other observations

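Some promoters of the family faced another gene. The windows of 7 of the 59 members with one (11.9%) overlapped that of a gene on the opposite strand, as did 5.15% of the 13587 array genes with a window. The members were Ndufa4, Ndufa5, Ndufaf8, Ndufb3, Ndufb5, Ndufs3 and Uqcr10. Tepsin, which faces Ndufaf8, was chosen after its values were seen. It differed by -0.50 (SE 0.12, adjusted p = 0.0447, limma) in untreated hIAPP against untreated wild-type islets, beside -0.20 for Ndufaf8. With PBA in hIAPP islets Tepsin differed by 0.60 (adjusted p = 0.0293, limma), beside -0.05 for Ndufaf8. Kbtbd4, which faces Ndufs3, differed by -0.35 (SE 0.13, adjusted p = 0.1564, limma) without treatment and by 0.10 with PBA in hIAPP islets, beside -0.20 and 0.25 for Ndufs3. Of the other facing genes, Phf14, Asb15, Mrpl47 and Zmat5 differed by 0.05, 0.00, -0.15 and 0.00 without treatment, and Fam126b was not analysed here.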
